A study of Mus musculus with 12 samples.

Results

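The histone genes of the Hist clusters were followed in RNA from whole mouse bone marrow. A row of the deposited count table was taken as a member when its symbol began with Hist1, Hist2, Hist3 or Hist4 and its counts summed to at least 24 over the 12 libraries. Of 70 rows with such a symbol, 60 were members, out of 53801 rows in all. They comprised 5 H1, 14 H2A, 16 H2B, 12 H3 and 13 H4 genes. Members were thus chosen by their summed counts, which ran over all groups together, so it does not set which group is higher. The member nearest to the limit, Hist1h2aj, had 35 counts, the highest row left out, Hist1h1t, had 1 count, and the other 9 rows had 0.

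All mice were of the C57BL/6N strain, and the labels give 4 groups of 3 libraries. The MI-E mice had a myocardial infarction and were given EMPA, an agent that the labels do not spell out. The MI mice had the infarction alone, made by tying off the LAD, the left anterior descending coronary artery. The Sham-E mice belonged to the Sham arm and were given EMPA, and the Sham mice were without infarction or EMPA. No altered gene is named for any group. The sources used here do not give age, sex, dose, the time of sampling, the number of mice behind a library or how the libraries selected RNA. The spread between libraries may therefore be technical, and p-values refer to these libraries. Libraries are named by group and by the number in their column.

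Apart from Hist1h2aj and Hist3h2bb-ps, which are annotated as pseudogenes, the members code for the proteins that package DNA. H2A, H2B, H3 and H4 form the nucleosome core, and H1 is the linker histone that binds where DNA enters and leaves it. Genes of these clusters are read mainly in S phase, when new DNA has to be packaged, and most lack introns. Their mRNA usually ends without a poly(A) tail, just after a short stem-loop that is bound by the stem-loop binding protein, the product of Slbp. Some of them are also known to give longer mRNAs with a poly(A) tail in cells that have left the cell cycle. Protocols that capture poly(A) tails recover the tailless form poorly.

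The stem-loop was present in the annotated transcripts (GENCODE M21, on mm10) of 39 of the 60 members. It was searched as 16 bases, a stem of 6 bases that opens with GG and a loop of TTTN, within 150 bases after the stop codon. Of 21118 genes with enough annotated sequence, 51 held such an element, or 0.242%. The forms it took are shown with the bases on each side, since this is the element that sets these mRNAs apart. Capitals mark the stem and loop.
Hist1h1d: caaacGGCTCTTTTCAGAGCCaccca
Hist1h3c: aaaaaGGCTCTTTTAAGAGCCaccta
Hist2h2ac: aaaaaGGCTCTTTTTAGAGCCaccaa
Hist1h4d: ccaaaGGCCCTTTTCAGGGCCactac
Hist1h4i: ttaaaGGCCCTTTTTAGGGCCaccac
Hist1h4j: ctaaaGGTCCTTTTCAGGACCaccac
The form of Hist1h1d was shared by 22 members, all of them H1, H2A, H2B or H3 genes. The form of Hist1h4d was found in 7 members and that of Hist1h4j in 2, all of them H4 genes. The form of Hist1h3c occurred in 5 members, that of Hist1h4i in 2, both H4 genes, and that of Hist2h2ac in 1. Genes for H1 held the element in 3 of 5 cases, H2A in 7 of 14, H2B in 10 of 16, H3 in 8 of 12 and H4 in 11 of 13. A further 13 members are annotated without bases after a stop codon, so no element could be found in them. Below they are called members annotated as coding bases alone, though Hist1h2aj and Hist3h2bb-ps among them are pseudogenes.

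Promoter windows of 250 bases before the start were found for 53 members in RefSeq (GRCm38.p6), and 3 motifs were searched on both strands. TATAAA was present in 27 of 53 members (50.9%) and in 14.3% of 27025 genes, each counted if any of its windows matched. CCAAT was present in 42 of 53 members (79.2%) and in 37.5% of those genes. The octamer ATTTGCAT was present in 12 of 53 members (22.6%) and in 1.81% of all genes with a window. Those 12 members were 6 of 13 H2A and 6 of 13 H2B genes. No H1, H3 or H4 window held that octamer. H2A and H2B genes often lie head to head, so their windows can share bases. The 120 bases before the start are shown for a member of 3 classes that changed after infarction, with the matched motifs in capitals.
Hist1h1d, chr13:23554912-23555031, plus strand: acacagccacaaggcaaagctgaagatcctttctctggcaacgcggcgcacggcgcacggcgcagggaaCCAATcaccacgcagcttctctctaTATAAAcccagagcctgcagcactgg
Hist1h2bg, chr13:23571280-23571399, plus strand: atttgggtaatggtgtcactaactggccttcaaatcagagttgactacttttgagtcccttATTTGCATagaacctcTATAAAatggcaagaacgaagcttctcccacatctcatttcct
Hist1h3i, chr13:21783398-21783517, minus strand: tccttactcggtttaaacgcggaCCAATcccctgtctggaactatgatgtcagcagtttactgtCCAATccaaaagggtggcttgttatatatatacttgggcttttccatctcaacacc
In the stretches shown, Hist1h1d had a CCAAT and a TATAAA match, Hist1h2bg had the octamer just before a TATAAA match, and Hist1h3i had a pair of CCAAT matches. A match is a run of letters and no measure of binding.

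Total counts ran from 21175087 to 24606783 per library, of which the members took between 0.0183% and 0.0529%. Markers of marrow cells were present in every library, as 9 neutrophil precursor genes summed to between 32156 and 59159 CPM, 9 erythroid genes to between 3173 and 27089 CPM, and 10 B lineage genes to between 394 and 1600 CPM over the 12 libraries. CPM here are counts scaled to the library size after TMM scaling. All genes kept by edgeR's filter on low counts were tested together, 15119 in all, of which 56 were members. Hist1h2aj, Hist2h2ab, Hist2h3c2 and Hist3h2bb-ps did not pass it. Of the 56, 54 had at least 3 libraries above the filter's limit of 0.437 CPM outside the Sham group, whereas Hist1h2ah and Hist2h2bb had fewer. Counts and medians of the 56 are therefore given as a description, with the same over all 60 members from a fit to the 17679 genes with at least 24 counts.

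Per length, Hist1h1c was the highest member, with 66.0 to 198 TPM and a median of 124 TPM over the 12 libraries. Hist1h4i followed with 29.1 to 95.9 TPM and a median of 80.0 TPM. Hist3h2ba had a median of 36.8 TPM, Hist1h4k of 36.1 TPM and Hist1h2bc of 33.3 TPM, and the ranges of these 3 overlapped. Hist1h1c alone held 41.5% of the members' 93297 counts and the 6 members with most counts held 72.4%. A sum over members is therefore mostly a sum over those few genes.

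The question of the first comparison is what infarction does to the marrow, and that of the second what EMPA does after infarction. Both use the same 3 MI libraries, so their values are not independent. Histone transcripts were lowest in infarcted marrow without EMPA. The 60 members summed to 337, 562 and 396 CPM in MI-E marrow, 224, 192 and 261 CPM in MI marrow, 269, 323 and 337 CPM in Sham-E marrow, and 336, 326 and 489 CPM in Sham marrow. Each MI library lay below every library of the other 3 groups. The log2 ratio of the group means was -0.77 for MI against Sham, 0.93 for MI-E against MI, -0.31 for Sham-E against Sham and 0.48 for MI-E against Sham-E. Sham-E and Sham libraries overlapped, while each MI-E library was at least marginally above each Sham-E library. No p is given for these sums, because the members were chosen with results of these data known. The sums in deposited TPM averaged 784 in MI-E, 344 in MI, 636 in Sham-E and 929 in Sham marrow.

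**Figure D1:**
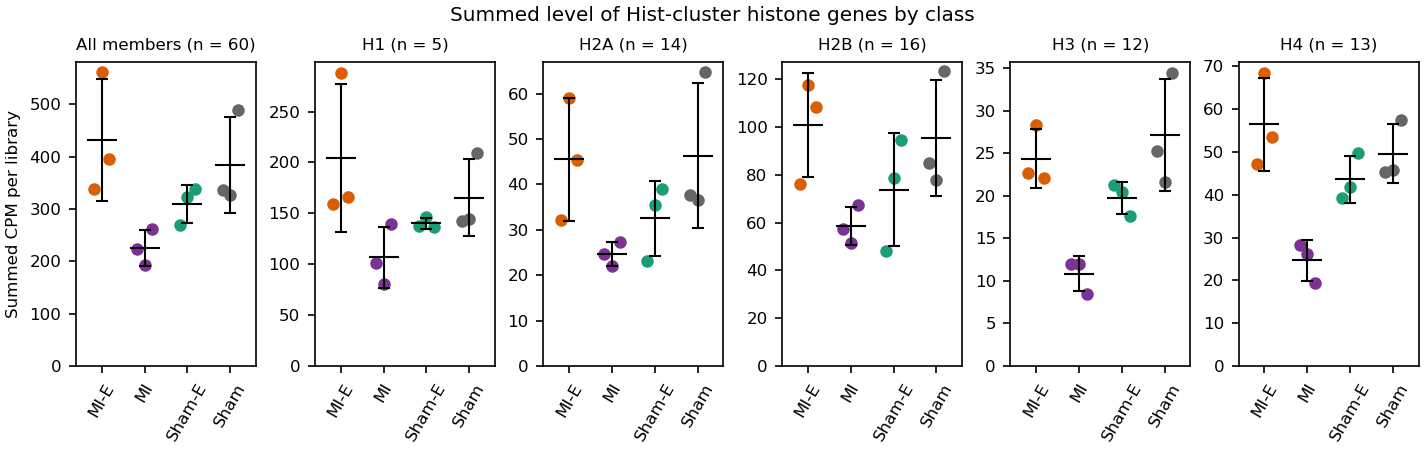
Summed CPM of all 60 members and of each histone class in each library (points), with group means and SD (bars, n = 3 libraries a group). All 3 MI libraries lie below the MI-E and Sham libraries in every panel, and Sham 4 and MI-E 3 are the high libraries of their groups in the sum over all members.

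Across members, 52 of the 56 tested were lower in MI than in Sham, with a median log2 fold change of -1.41 against 0.02 over all genes tested. Over all 60 members 55 were lower, with a median of -1.40. In the edgeR quasi-likelihood test 5 members passed an adjusted p of 0.05, all of them lower in MI. Of all genes tested 0.192% passed in that direction and 0.225% in the other, where no member did. At an unadjusted p under 0.05, 38 of 56 members were lower in MI, or 67.9%, beside 8.61% of all genes. The 3 MI libraries lay below the 3 Sham libraries in 41 of 60 members, beside 12.9% of genes with at least 24 counts, and above them in 2 members, beside 12.4%.

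With EMPA after infarction the members stood higher. Of 56 tested, 53 were higher in MI-E than in MI, with a median log2 fold change of 1.35 against -0.02 over all genes, and 56 of all 60 were higher. No member passed the adjusted p in edgeR, and 0.00661% of all genes did, which is 1 gene. The unadjusted p was under 0.05 in 39 members, or 69.6%, beside 8.52% of all genes, and DESeq2 passed 26 of the 50 members to which it gave an adjusted p, all higher in MI-E, beside 2.48% of all genes in that direction. The libraries did not overlap in 40 of 60 members, all higher in MI-E, beside 11% of genes. The lowest adjusted p among members was 0.0847 (edgeR), shared by Hist1h1d, Hist1h2bn, Hist1h3i, Hist1h4a and Hist1h4i.

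**Figure D2:**
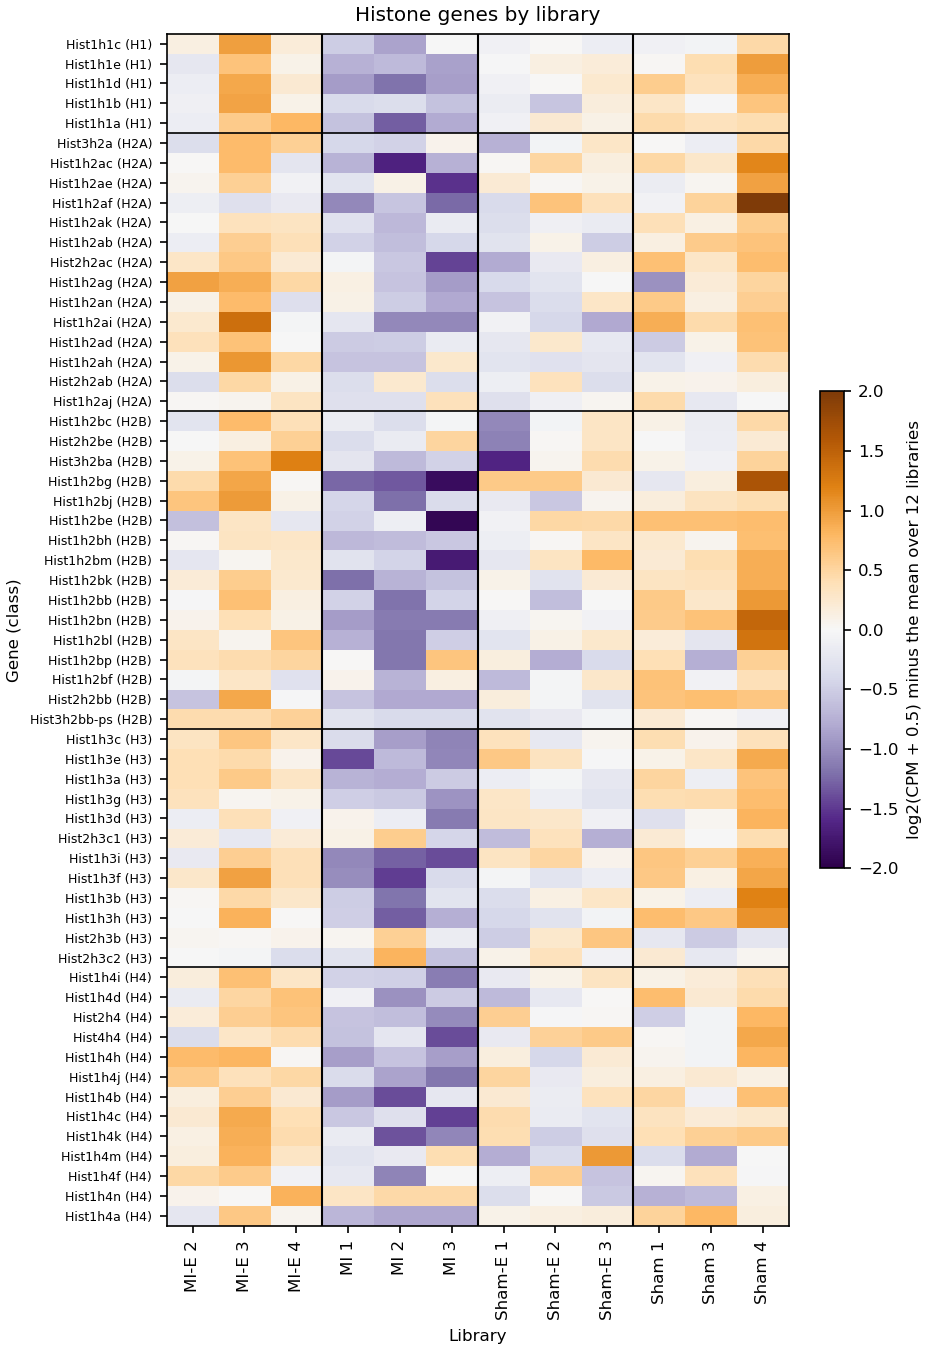
log2(CPM + 0.5) of each of the 60 members (rows, by class and then by level) in each library (columns, by group), less the member's mean over the 12 libraries. The MI columns are low (purple) for most rows of every class, and Sham 4 and MI-E 3 are high (orange) within their groups.

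The 5 members that fell in MI came from 4 classes, and their values are shown by library in the plot of members past the threshold. Hist1h2bn, an H2B gene, had 0.888, 1.24 and 0.909 CPM in MI-E, against 0.210, 0.0991 and 0.0986 CPM in MI, 0.735, 0.854 and 0.755 CPM in Sham-E, and 1.49, 1.64 and 3.10 CPM in Sham. The MI values stood apart from all others. Its log2 fold change was -3.86 ± 0.50 (SE) in MI against Sham, with an edgeR adjusted p of 0.016, and 2.82 ± 0.50 in MI-E against MI, with an adjusted p of 0.0847. The counts behind these levels were small, 21, 26 and 20 in MI-E, 5, 2 and 2 in MI, and 35, 40 and 78 in Sham.

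Hist1h3i codes for H3 and had 1.01, 2.05 and 1.73 CPM in MI-E, against 0.336, 0.198 and 0.148 CPM in MI, 1.64, 1.90 and 1.29 CPM in Sham-E, and 2.17, 2.01 and 2.58 CPM in Sham. Again no MI library overlapped another group, and the Sham-E libraries lay below the Sham libraries. The log2 fold change was -3.26 ± 0.43 in MI against Sham (edgeR adjusted p = 0.016) and 2.76 ± 0.43 in MI-E against MI. Hist1h2bn lies on chromosome 13 from 21754123 to 21754503 (mm10) and Hist1h3i from 21782960 to 21783370, each as 1 exon of coding bases. Of their 75-base stretches, 72.3% and 78.3% also occur in transcripts of other genes, so how RSEM divided shared reads bears on both.

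Hist1h1d, a linker histone gene, had 3.76, 8.29 and 4.96 CPM in MI-E, against 2.01, 1.54 and 2.02 CPM in MI, 3.89, 4.19 and 5.02 CPM in Sham-E, and 6.52, 5.45 and 8.06 CPM in Sham. It fell by 1.84 ± 0.31 on the log2 scale in MI against Sham (edgeR adjusted p = 0.0329), and the MI-E against MI value was 1.60 ± 0.31. Only 1.5% of its 75-base stretches occur elsewhere, which makes it the called member with the least shared sequence. Its transcript in GENCODE, a single exon of 7425 bases from 23553262 to 23560686, runs 4884 bases past the stem-loop. The promoter window shown above, from RefSeq, lies inside that exon, so these sources place the start of the gene differently.

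Hist1h4a, an H4 gene, had 6, 18 and 9 counts in MI-E, 1, 0 and 0 counts in MI, 10, 12 and 11 counts in Sham-E, and 18, 25 and 12 counts in Sham. Its MI level was 0.0207 of the Sham level, with an exact binomial 95% interval from 0.000514 to 0.12 that covers counting error only. The MI-E level was 31.8 times the MI level, with an interval from 5.33 to 1295. The edgeR adjusted p was 0.0352 in MI against Sham, and the fitted log2 fold change of -5.19 ± 0.89 depends on the prior count at so few reads. Hist2h2bb, an H2B gene that did not pass the threshold, had 34 counts over the MI-E libraries, 2 over the MI libraries and 66 over the Sham libraries. It passed the filter only through its Sham libraries, so its low level in MI is no support for Hist1h4a. Of the 34 counts 24 came from MI-E 3, and all its exon bases are shared with other genes.

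Hist1h2bg, an H2B gene, had 9.05, 12.8 and 6.64 CPM in MI-E, against 2.43, 2.28 and 1.43 CPM in MI, 10.3, 10.3 and 7.68 CPM in Sham-E, and 5.58, 7.30 and 21.4 CPM in Sham. The Sham mean rested in large part on Sham 4. The log2 fold change in MI against Sham was -2.48 ± 0.47 with an edgeR adjusted p of 0.0493, and -1.67 with an adjusted p of 0.162 without Sham 4. In MI-E against MI it was 2.21 ± 0.47, with an adjusted p of 0.0966. Hist1h2af, an H2A gene, was high in the same library, with 46, 78 and 313 counts in Sham 1, Sham 3 and Sham 4. A member stood higher in Sham 4 than in the mean of the other Sham libraries in 52 of 60 cases, with a median log2 difference of 0.46, and in MI-E 3 than in the other MI-E libraries in 48 of 60 cases, with a median of 0.39. The same medians over all genes were 0.00 and -0.02.

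**Figure D3:**
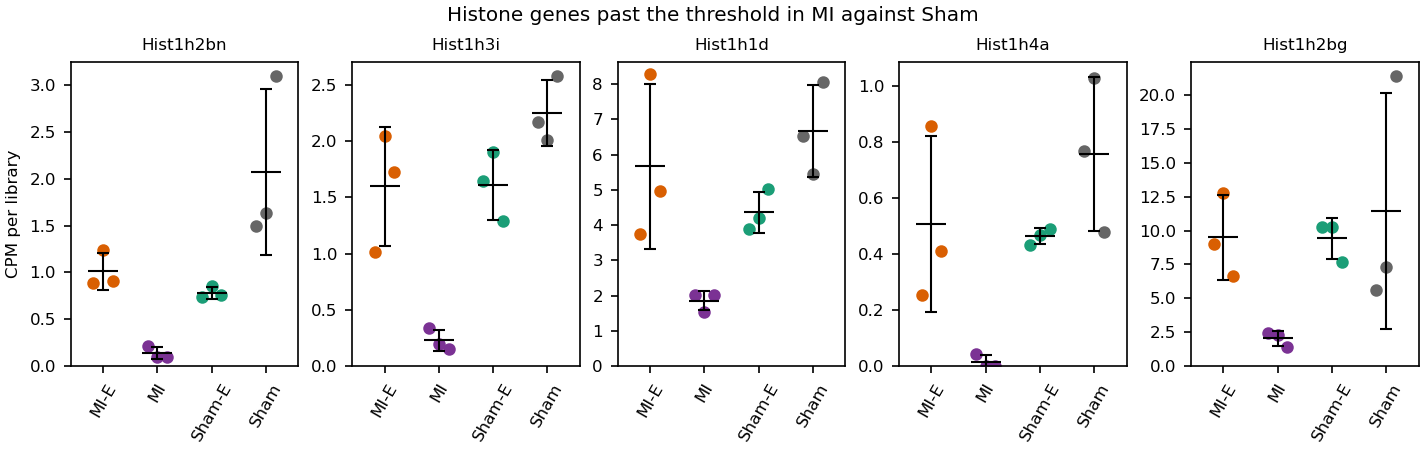
CPM in each library (points) of the 5 members past an adjusted p of 0.05 in MI against Sham, with group means and SD (bars, n = 3 libraries a group). The MI libraries are the lowest in each panel, and Sham 4 is the high point for Hist1h2bg at 21.4 CPM.

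The number of members called rested on single libraries. Without Sham 1, without Sham 4 or without MI 3 no member passed in MI against Sham, and without Sham 3 only Hist1h2bn did, where between 1 and 7 genes passed over all genes tested. Without MI-E 2, without MI-E 4 or without Sham-E 2, libraries of neither group compared, 2 members passed, and 6, 9 and 12 genes in all. Leaving out Sham-E 1 raised the count to 22 members, and that over all genes to 1224. In MI-E against MI the count went up to 3 without Sham-E 1, where 42 genes passed, and to 14 without MI 1, where 988 genes passed. In all these fits between 50 and 54 members were lower in MI than in Sham. DESeq2, the other tool run, passed 29 members in MI against Sham, all lower in MI, beside 3.01% of all genes in that direction.

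Linker histone genes summed to 159, 288 and 166 CPM in MI-E, against 101, 80.2 and 139 CPM in MI, 138, 147 and 136 CPM in Sham-E, and 143, 144 and 209 CPM in Sham. MI lay below Sham without overlap, though MI 3 was close to Sham 1. All 5 H1 genes were lower in MI than in Sham (median log2 fold change -1.44), and all 5 were higher in MI-E than in MI, with a median of 1.12. Hist1h1c, by far the most abundant, had 148, 264 and 151 CPM in MI-E, against 94.3, 73.8 and 133 CPM in MI, 126, 134 and 122 CPM in Sham-E, and 126, 128 and 185 CPM in Sham. MI 3 overlapped the Sham libraries, and the log2 fold change of -0.55 ± 0.26 did not pass (edgeR adjusted p = 0.264). In MI-E against MI the value was 0.91 ± 0.26 (adjusted p = 0.139). Hist1h1e had 4.06, 7.95 and 5.05 CPM in MI-E, against 2.64, 2.82 and 2.37 CPM in MI, and 4.86, 6.48 and 9.92 CPM in Sham, with log2 fold changes of 1.12 ± 0.31 in MI-E against MI and -1.44 ± 0.31 in MI against Sham. Hist1h1a, the H1 gene with the lowest CPM, though not per length, had 1.06, 2.10 and 2.46 CPM in MI-E, against 0.629, 0.198 and 0.493 CPM in MI, and 1.83, 1.68 and 1.79 CPM in Sham.

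H2A genes summed to 32.1, 59.1 and 45.4 CPM in MI-E, against 24.6, 22.0 and 27.3 CPM in MI, 23.2, 35.6 and 38.9 CPM in Sham-E, and 37.7, 36.5 and 64.8 CPM in Sham. All 12 H2A genes tested were lower in MI than in Sham, with a median of -1.39, and higher in MI-E than in MI, with a median of 1.25, and none passed the threshold. Hist3h2a, the H2A gene with most counts, had 15.8, 34.3 and 29.9 CPM in MI-E, against 15.0, 14.4 and 21.1 CPM in MI, and 20.2, 18.3 and 27.8 CPM in Sham. Its MI libraries overlapped both other groups. Hist1h2ac had 2.49, 4.52 and 2.00 CPM in MI-E, against 1.30, 0.446 and 1.28 CPM in MI, and 3.62, 3.08 and 6.15 CPM in Sham, a log2 fold change of -2.07 ± 0.45 in MI against Sham (edgeR adjusted p = 0.0575). For Hist1h2af the value was -2.76 ± 0.63 (adjusted p = 0.0629), with Sham 4 as its high library. Exon bases shared with a transcript of the opposite strand were annotated for all 14 H2A members, and the sources used here do not say whether counting used strand.

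H2B genes summed to 76.3, 118 and 108 CPM in MI-E, against 57.2, 51.6 and 67.2 CPM in MI, 48.0, 78.6 and 94.5 CPM in Sham-E, and 84.9, 77.9 and 123 CPM in Sham. Of 15 tested, 14 were lower in MI than in Sham, with a median of -1.55, and all 15 were higher in MI-E than in MI, with a median of 1.24. The H2B genes with most counts did not pass the threshold. Hist1h2bc had 20.8, 42.5 and 32.8 CPM in MI-E, against 22.5, 19.6 and 24.4 CPM in MI, and 26.9, 22.5 and 34.6 CPM in Sham, with overlap between all 3 groups. Hist2h2be had 18.3, 20.2 and 27.2 CPM in MI-E, against 14.4, 16.2 and 26.3 CPM in MI, and 18.3, 16.7 and 21.3 CPM in Sham, and a log2 fold change of 0.01 ± 0.33 whose sign changed between settings. No stem-loop was found in either of these genes, and both have bases annotated after the stop codon. Hist3h2ba had 10.2, 15.8 and 22.8 CPM in MI-E, against 7.97, 5.85 and 6.85 CPM in MI, and 10.1, 9.02 and 13.9 CPM in Sham, with no overlap of MI with either group. Its Sham-E 1 library was far below the others of Sham-E, at 2.77 CPM, and Sham-E 3 was the highest at 13.1 CPM.

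H3 genes showed the lowest class ratio in MI against Sham, a log2 ratio of sums of -1.32. They summed to 22.7, 28.3 and 22.1 CPM in MI-E, against 12.0, 12.0 and 8.48 CPM in MI, 21.2, 20.4 and 17.7 CPM in Sham-E, and 25.3, 21.7 and 34.4 CPM in Sham. H3 was also the only class in which the Sham-E libraries all lay below the Sham libraries. Of 11 tested, 10 were lower in MI than in Sham, with a median of -1.51, and 9 were higher in MI-E than in MI, with a median of 1.41. Hist1h3c had 5.33, 6.86 and 5.23 CPM in MI-E, against 3.15, 2.03 and 1.73 CPM in MI, and 5.76, 4.43 and 5.56 CPM in Sham, with log2 fold changes of 1.33 ± 0.28 in MI-E against MI (edgeR adjusted p = 0.0925) and -1.18 ± 0.28 in MI against Sham (adjusted p = 0.0672). Hist1h3e had 3.04, 3.14 and 2.32 CPM in MI-E, against 0.504, 1.19 and 0.789 CPM in MI, and 2.34, 2.79 and 4.48 CPM in Sham. Hist1h3a had 2.96, 3.52 and 2.73 CPM in MI-E, against 1.09, 1.04 and 1.33 CPM in MI, and 3.24, 1.93 and 3.69 CPM in Sham. In both genes the MI libraries lay below all libraries of MI-E and Sham.

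H4 genes summed to 47.3, 68.5 and 53.6 CPM in MI-E, against 28.4, 26.3 and 19.4 CPM in MI, 39.2, 41.9 and 49.7 CPM in Sham-E, and 45.4, 45.9 and 57.5 CPM in Sham. The log2 ratio was -1.01 for MI against Sham and 1.19 for MI-E against MI. Of 13 tested, 11 were lower in MI than in Sham, with a median of -1.36, and 12 were higher in MI-E than in MI, with a median of 1.61. Hist1h4i had 30.2, 44.3 and 32.7 CPM in MI-E, against 19.2, 19.1 and 12.1 CPM in MI, 23.6, 28.4 and 33.4 CPM in Sham-E, and 28.9, 30.5 and 35.0 CPM in Sham. Its MI libraries were the lowest of all, and the log2 fold changes were 1.09 ± 0.21 in MI-E against MI (edgeR adjusted p = 0.0847) and -0.90 ± 0.21 in MI against Sham (adjusted p = 0.0629). Hist1h4d had 1.61, 2.81 and 3.32 CPM in MI-E, against 1.72, 0.694 and 1.13 CPM in MI, and 3.45, 2.26 and 2.70 CPM in Sham. Hist2h4 had 2.11, 2.95 and 3.18 CPM in MI-E, against 1.05, 0.991 and 0.641 CPM in MI, and 1.15, 1.72 and 3.49 CPM in Sham.

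Of the tested members, 4 did not share the direction of the rest in MI against Sham, and none of them passed the threshold. Hist1h4n had 0.676, 0.619 and 1.50 CPM in MI-E, against 0.881, 1.04 and 1.04 CPM in MI, and 0.171, 0.205 and 0.714 CPM in Sham, with a log2 fold change of 1.42 ± 0.60 in MI against Sham. Hist2h3b had 0.296, 0.286 and 0.318 CPM in MI-E, against 0.294, 0.644 and 0.197 CPM in MI, and 0.171, 0.0410 and 0.159 CPM in Sham, with a value of 1.57 ± 0.86. In these 2 genes the MI libraries lay above the Sham libraries without overlap. The values of Hist1h4m and Hist2h2be were 0.66 ± 0.72 and 0.01 ± 0.33. Of the 75-base stretches of Hist1h4n, Hist1h4m and Hist2h3b, 83.4%, 89% and 78.5% also occur in other genes, and all the exon bases of Hist2h3b lie within a gene of the opposite strand. In MI-E against MI the 3 tested members below 0 were Hist2h3b at -0.32 ± 0.79, Hist2h3c1 at -0.09 ± 0.44 and Hist1h4n at -0.08 ± 0.57.

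H1 genes took the largest share of the summed level in each group. They made up 46.8% ± 4.6 in MI-E, 46.8% ± 5.9 in MI, 45.7% ± 5.3 in Sham-E and 43.2% ± 0.96 in Sham (SD, n = 3 libraries each). H3 made up 5.79% ± 0.85 in MI-E, 4.96% ± 1.6 in MI, 6.48% ± 1.3 in Sham-E and 7.06% ± 0.45 in Sham. Differences between groups in these shares were not tested.

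EMPA without infarction went with a smaller difference. In Sham-E against Sham 51 of 56 members were lower (median log2 fold change -0.50), as were 54 of all 60. In edgeR no member and 0% of all genes passed the adjusted p, 7 members had an unadjusted p under 0.05, beside 0.681% of all genes, and DESeq2 also passed 0 members, beside 0.0132% of all genes. The Sham-E libraries lay below the Sham libraries in 17 of 60 members, beside 4.58% of genes. Hist1h2bn was at -1.40 ± 0.41 and Hist1h3h, an H3 gene, at -1.55 ± 0.54, the lowest p-values among members, and Hist2h3b at 1.63 ± 0.85 and Hist1h4m at 0.88 ± 0.72 went the other way. The difference depended on Sham 4, without which 40 of 57 members tested were lower with a median of -0.19. Without Sham-E 1, 49 of 57 were lower, with a median of -0.41. Sham-E 1 stood apart from Sham-E 2 and Sham-E 3 in markers of marrow cells. In that order these libraries had 1.21, 185 and 207 CPM of Rag1 (B lineage), 458, 2152 and 4133 CPM of Slc4a1 (erythroid), and 4506, 2055 and 1404 CPM of Mpo (neutrophil precursor).

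Infarction under EMPA, MI-E against Sham-E, showed members slightly higher. Of 56 tested, 48 were higher in MI-E (median log2 fold change 0.47), as were 50 of all 60. In edgeR 0 members and 0% of all genes passed the adjusted p, 6 members had an unadjusted p under 0.05, beside 5.99% of all genes, and DESeq2 passed 0 members, beside 0.485% of all genes. The MI-E libraries lay above the Sham-E libraries in 13 of 60 members, beside 11.2% of genes. Without MI-E 3, 40 of 57 members tested were higher in MI-E, with a median of 0.27. Hist1h2bj, an H2B gene, had 6.42, 8.33 and 4.23 CPM in MI-E and 3.37, 2.48 and 4.04 CPM in Sham-E, a value of 0.94 ± 0.33. Its neighbour Hist1h2ag, an H2A gene, was at 1.36 ± 0.58. Hist1h2be and Hist1h2af, at -0.49 ± 0.45 and -0.60 ± 0.59, were on the other side.

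The interaction asks whether the MI-E minus MI difference differs from the Sham-E minus Sham difference. It was above 0 in 53 of 56 members, with a median of 2.00 on the log2 scale against -0.04 over all genes, and in 56 of all 60. No member passed the adjusted p in edgeR, where 0.00661% of all genes did, 41 members, or 73.2%, had an unadjusted p under 0.05, beside 6.22% of all genes, and DESeq2 passed 20 members of 53, all above 0, beside 0.648% of all genes. The lowest adjusted p among members was that of Hist1h2bn, at 4.22 ± 0.65 (edgeR adjusted p = 0.177), followed by Hist1h3i at 3.24 ± 0.57 (adjusted p = 0.221). Hist2h3b was at -1.95 ± 1.16, Hist1h4n at -0.30 ± 0.85 and Hist1h4m at -0.25 ± 0.99. Without MI 1, 6 members passed in edgeR, and 150 genes over all genes tested.

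The size of the difference in MI against Sham varied with how the transcript is annotated. Members annotated as coding bases alone had a median log2 fold change of -2.82 over the 10 tested of 13. The 3 others, which include the pseudogenes Hist1h2aj and Hist3h2bb-ps, did not pass the filter. Those whose transcript ends within 100 bases of the stem-loop had a median of -1.36 (18 tested of 18), those that run over 100 bases past it one of -1.33 (20 of 21), and those with bases after the stop codon but no stem-loop one of -1.32 (8 of 8). In MI-E against MI the same groups had medians of 2.34, 1.39, 1.14 and 1.04. The groups were not compared by a test, since members share reads and libraries. Across the 56 members Spearman's rho of the log2 fold change in MI against Sham was 0.28 with log2 transcript length, 0.23 with mean level, -0.19 with GC content and -0.16 with the share of 75-base stretches found elsewhere, as a description of genes that share sequence, depth and cluster.

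**Figure D4:**
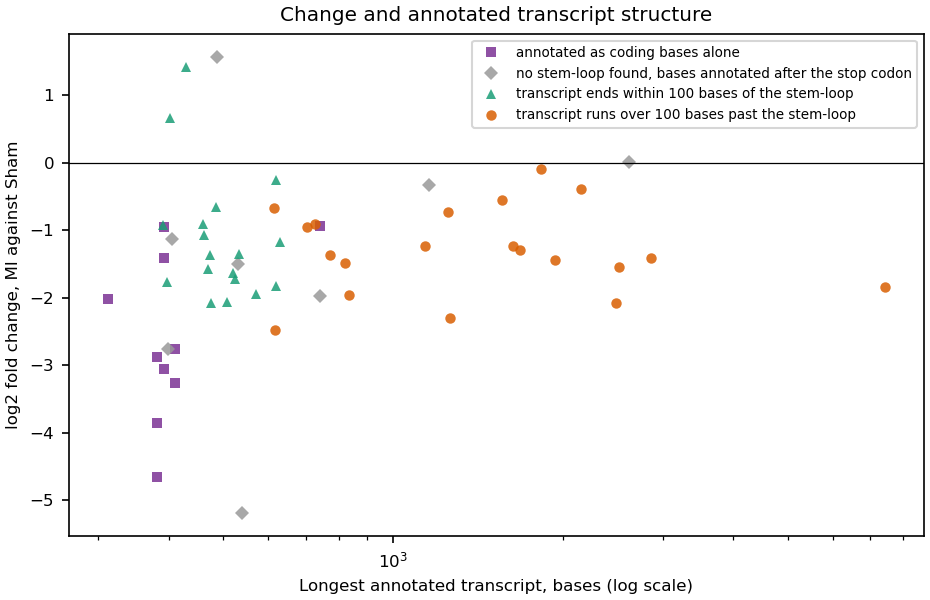
log2 fold change in MI against Sham (edgeR) of the 56 members tested against the length of the longest annotated transcript in bases (log scale), with a symbol for each kind of annotated transcript end. Members annotated as coding bases alone sit at the left with a median of -2.82, and Hist1h1d, with the longest transcript at 7425 bases, lies at -1.84 on the right.

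The direction was the same in both blocks of Hist1. In the block of Hist1 on chromosome 13 that holds Hist1h1c, Hist1h1d and Hist1h2bg, 28 of 28 members were lower in MI than in Sham, with a median of -1.53, and 28 of 28 were higher in MI-E than in MI, with a median of 1.37. In the block at lower coordinates, which holds Hist1h2bn and Hist1h3i, 17 of 19 tested were lower, with a median of -1.36, and 18 of 19 were higher in MI-E, with a median of 1.63. In Hist2, on chromosome 3, 4 of 6 tested members were lower in MI, with a median of -0.67. Both tested members of Hist3, on chromosome 11, were lower, with a median of -0.54.

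Lists of other genes of the histone pathway and of cell types were read in the same fit. In MI against Sham and in MI-E against MI no gene of any of the 9 lists passed the adjusted p in edgeR. Of 108 list genes tested, 35 had an unadjusted edgeR p under 0.05 in MI against Sham and 34 in MI-E against MI. These counts take both directions. Of all genes, 8.61% were lower and 10.9% higher at that p in MI against Sham. In MI-E against MI these shares were 8.88% lower and 8.52% higher. DESeq2 passed 8 list genes, all lower in MI, and 12, all higher in MI-E. The shares of all genes were the 3.01% and 2.48% given above. In bulk tissue fewer cells of a type and less RNA per cell cannot be told apart, which holds for every level given here. The 22 S phase genes, most of which code for replication enzymes and licensing factors, were all lower in MI than in Sham, with a median of -0.47, and all higher in MI-E than in MI, with a median of 0.57. Of them, 17 had an unadjusted p under 0.05 in each comparison. Beside them stand 8.61% of all genes, lower in MI than in Sham, and 8.52%, higher in MI-E than in MI. They summed to between 4526 and 5940 CPM in MI-E, between 3424 and 3662 CPM in MI, between 3566 and 5375 CPM in Sham-E and between 4584 and 5190 CPM in Sham. Lig1, a DNA ligase of replication, had 195 ± 33 CPM in MI-E, 104 ± 17 CPM in MI, 172 ± 29 CPM in Sham-E and 184 ± 6.1 CPM in Sham (SD, n = 3), and log2 fold changes of 0.91 ± 0.17 in MI-E against MI and -0.82 ± 0.17 in MI against Sham (edgeR adjusted p = 0.0847 and 0.0549). Mcm5, part of the replicative helicase, was at 0.57 ± 0.14 and -0.51 ± 0.14 in the same order of comparisons.

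The 11 replication-independent histone genes, whose products can be laid down outside S phase, had medians of -0.11 in MI against Sham and 0.32 in MI-E against MI, with 7 lower and 9 higher. H2afx, which codes for the H2A variant phosphorylated at DNA breaks, had 425 ± 86 CPM in MI-E, 214 ± 75 CPM in MI, 331 ± 71 CPM in Sham-E and 409 ± 19 CPM in Sham. Its log2 fold changes were 0.99 ± 0.26 in MI-E against MI and -0.93 ± 0.26 in MI against Sham. H1fx, a linker variant, was at 0.37 ± 0.33 and -0.84 ± 0.33.

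Genes that transcribe, process and escort histones were read as 3 lists. All 8 genes of histone gene transcription were lower in MI than in Sham, with a median of -0.27, and 4 of 8 were higher in MI-E than in MI, with a median of 0.05. Npat, Hinfp, Casp8ap2 and Pou2f1 had lower mean CPM in MI-E than in MI. E2f1, a factor of S phase entry, had 74.8 ± 14 CPM in MI-E, 42.0 ± 9.5 CPM in MI and 62.7 ± 0.64 CPM in Sham, and Ccne1, a cyclin of the same step, had 88.5 ± 21 CPM in MI-E, 45.3 ± 1.8 CPM in MI and 72.2 ± 7.4 CPM in Sham. Of 18 genes of mRNA end processing and decay, 12 were lower in MI than in Sham (median -0.14) and 11 higher in MI-E than in MI (median 0.04). Slbp, whose product binds the stem-loops shown above, had 208 ± 34 CPM in MI-E, 147 ± 23 CPM in MI, 188 ± 51 CPM in Sham-E and 203 ± 19 CPM in Sham, with log2 fold changes of 0.50 ± 0.20 in MI-E against MI and -0.46 ± 0.20 in MI against Sham (edgeR adjusted p = 0.237 and 0.232). Cpsf3, the nuclease of 3′ end cleavage, was at -0.26 ± 0.15 and 0.38 ± 0.15, and Srrt at 0.30 ± 0.13 and -0.31 ± 0.13. Of 17 histone chaperones, 12 were lower in MI than in Sham (median -0.16) and 12 higher in MI-E than in MI (median 0.22). Chaf1a, a subunit of the assembly factor CAF-1, was at 0.72 ± 0.19 in MI-E against MI and -0.69 ± 0.19 in MI against Sham, and Ssrp1, a subunit of FACT, at 0.36 ± 0.12 and -0.39 ± 0.12.

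**Figure D5:**
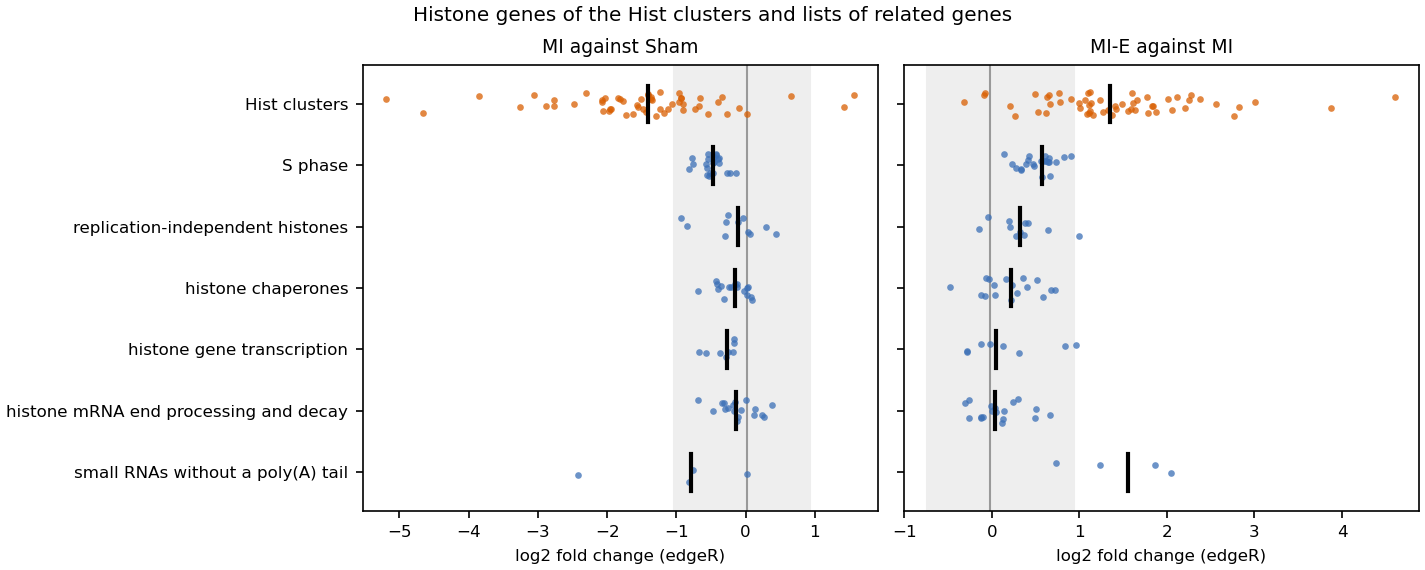
log2 fold changes (edgeR) of the members of the Hist clusters (orange) and of 6 lists of related genes (blue), with list medians (black bars), in MI against Sham and MI-E against MI. The grey band spans the central 90% of all genes tested and the grey line is their median; the Hist clusters, with medians of -1.41 and 1.35, reach well outside the band, while the S phase genes, at -0.47 and 0.57, lie mostly inside it.

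Several other measures were read by group, and their part in the histone result was not tested. Small RNAs that carry no poly(A) tail were mostly undetected, with 9 of 15 rows at 0 in every library and 4 tested. These 4 had a median of -0.79 in MI against Sham and 1.55 in MI-E against MI, and the list summed to 9.46 to 11.8 CPM in MI-E, 4.51 to 7.55 CPM in MI, 10.4 to 12.6 CPM in Sham-E, and 4.95 to 15.3 CPM in Sham. Rn7sk had 7.76 ± 0.92 CPM in MI-E, 4.65 ± 2.3 CPM in MI and 7.91 ± 4.9 CPM in Sham, and Terc 0.291 ± 0.23, 0.0748 ± 0.066 and 0.435 ± 0.24 CPM in the same groups. The fragment length that the deposited counts and TPM imply was 281 ± 1.2 bases in MI-E, 264 ± 0.97 in MI, 277 ± 5.1 in Sham-E and 286 ± 1.6 in Sham (SD, n = 3), with every MI library the shortest. Mitochondrial genes took 1.53% ± 0.29 of counts in MI-E, 2.74% ± 0.73 in MI, 1.61% ± 0.25 in Sham-E and 1.55% ± 0.10 in Sham. With offsets that remove trends on GC content and length from each library, 4 members passed in MI against Sham, beside 0.126% of all genes in that direction, and Hist1h2bg was at -2.40 with an edgeR adjusted p of 0.0528.

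Cell type markers varied between lists and between genes of a list. All 10 B lineage genes were lower in MI than in Sham, with a median of -1.26, but 6 of 10 were lower in MI-E than in MI, with a median of -0.26, and their sums were 672 to 789 CPM in MI-E, 531 to 700 CPM in MI, 394 to 1245 CPM in Sham-E and 1078 to 1600 CPM in Sham. Cd79a, a signalling chain of B cells, had 209 ± 31 CPM in MI-E, 104 ± 32 CPM in MI and 265 ± 63 CPM in Sham, and Pax5, the factor of B cell identity, 90.2 ± 6.0, 85.4 ± 26 and 190 ± 28 CPM in the same groups. The 9 erythroid genes measured had medians of 0.01 in MI against Sham and 0.22 in MI-E against MI, with sums of 13342 to 23153 CPM in MI-E, 7850 to 27089 CPM in MI, 3173 to 18292 CPM in Sham-E and 11544 to 15223 CPM in Sham. Of the 9, 4 were lower in MI than in Sham and 5 were higher, such as Hba-a1, an alpha globin gene, with 8487 ± 5828 CPM in MI and 6521 ± 1167 CPM in Sham. In MI-E against MI, 8 of the 9 erythroid genes were higher and 1 was lower. Klf1, an erythroid transcription factor, had 226 ± 69.7 CPM in MI-E, 88.7 ± 24 CPM in MI and 208 ± 25 CPM in Sham, and Epor, the erythropoietin receptor, 99.2 ± 29.9, 51.3 ± 19.9 and 88.2 ± 10.5 CPM in the same groups. The 9 neutrophil precursor genes had medians of 0.30 and 0.02, with Ngp at 0.43 ± 0.25 and Camp at 0.35 ± 0.23 in MI against Sham. In that comparison 7 of these 9 were higher in MI and 2 were lower. Mpo had 1468 ± 222 CPM in MI and 1894 ± 320 CPM in Sham, and Elane 644 ± 75 and 747 ± 132 CPM. None of the markers of these 3 lists was at 0 in all libraries, and their part in the histone result was not tested.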

How the data were processed

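The authors deposited expected counts per gene from RSEM, unscaled, and TPM values, which are scaled by transcript length to a common total. Per the submitters' processing notes, the tools were CASAVA 1.8, STAR 2.4.0j and RSEM, with build mm10. Columns of Sham-E and MI matched single samples, and those of Sham and MI-E matched their group only. Expected counts were rounded, filtered with filterByExpr, scaled by TMM and tested with edgeR 4.0.16 (R 4.3.3, quasi-likelihood, robust, all 12 libraries, a mean per group, 8 residual degrees of freedom). P-values were adjusted by Benjamini-Hochberg over the 15119 genes in the fit and read at 0.05, and SEs were derived from the log2 fold change and its F statistic. The test was checked on simulated data in which all genes had the same spread and low-count genes were left unchanged. Members with few counts, such as Hist1h4a, were therefore not covered by that check. Members and lists were chosen with earlier results of these data known. Named members are the 3 of each class with the highest mean CPM, those past the threshold, the 2 in each direction with the smallest p per comparison, and Hist1h2bg and Hist1h1d, and from each list the 2 genes with the smallest p in MI against Sham, and Slbp. Hist1h1a, Hist2h2bb, Hba-a1, Mpo, Elane, Rag1, Slc4a1, Npat, Hinfp, Casp8ap2, Pou2f1 and the members counted as exceptions were added after their values were seen. Exons, lengths and 75-base stretches came from GENCODE M21, which holds 53706 of 53801 IDs, and promoters from RefSeq. Fragment length was read from the ratio of counts to TPM against length, in genes with 1 transcript of 600 to 6000 bases. Intervals cover counting error only.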

Additional observations from a re-analysis of the deposited data

Results flagged for a closer look

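The log2 ratio of summed CPM had opposite signs, with no overlap of libraries in either comparison, in the following cases. The difference between the paired comparisons was not tested for the sums. Over all members the log2 ratio was -0.77 in MI against Sham and 0.48 in MI-E against Sham-E. There MI-E 2, at 337.265 CPM, only just exceeded Sham-E 3, at 337.218 CPM. Over H1 genes the ratio was -0.63 in MI against Sham and 0.54 in MI-E against Sham-E. Here MI 3, at 139 CPM, was close to Sham 1, at 143 CPM. Over H3 genes the ratio was -1.32 in MI against Sham and 0.30 in MI-E against Sham-E, and 1.17 in MI-E against MI and -0.45 in Sham-E against Sham. In H3 the Sham-E 1 library, at 21.2 CPM, lay close to MI-E 4, at 22.1 CPM, and to Sham 3, at 21.7 CPM. For single members the difference between the paired comparisons is the interaction, in which edgeR passed 0 of 56 members and DESeq2 20 of 53, beside 0.648% of all genes.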

How the results depend on the processing

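Of the values for named members, 1132 kept their direction and side of the threshold, 55 came to pass it, 44 no longer passed it and 15 changed sign. Only the 5 members called in MI against Sham could stop passing, so all 44 come from them. Most of the 1132 are values that did not pass in the main fit either. In MI against Sham, where 5 members passed, 12 passed with library size alone or with no filter (beside 0.536% and 0.28% of all genes, lower in MI), 29 with DESeq2 (3.01%), and 3 without members that share most of their 75-base stretches with other genes, a setting chosen after seeing the data that takes out Hist1h2bn and Hist1h3i and refits nothing. Deviations from the group mean of same-numbered libraries correlated between -0.26 and 0.22, with 5 of 13 pairs above 0.1. Libraries of different number were not compared, so whether column numbers pair the samples was not settled. With the column number as a replicate block 0 members passed in MI against Sham, beside 0.00661% of all genes, lower in MI. With the block and the GC and length offsets also 0 members passed, beside 0.00661% of all genes in that direction. In the other comparisons no call of a member changed under either setting. Leaving out 1 library gave 0 to 22 members in MI against Sham, 0 to 14 in MI-E against MI (main 0) and 0 to 6 in the interaction (main 0), with 0 in Sham-E against Sham and MI-E against Sham-E. In MI-E against MI 3 members passed with no filter (0.0841% of all genes) and 26 with DESeq2, and in the interaction 20 with DESeq2. The summed log2 ratio of -0.77 in MI against Sham was -1.43 in TPM and -1.41 as the median of fitted values, and -0.88 to -0.55 with 1 library left out. For MI-E against MI, at 0.93, the median was 1.35 and the range 0.70 to 1.08. Some values changed sign. Hist2h2be in MI against Sham was -0.11 with library size alone, -0.0078 with upper quartile, -0.051 with GC and length offsets and -0.30 to 0.18 with 1 library left out, and in MI-E against MI it was -0.031 under the replicate block. Hist1h2af in MI-E against MI was -0.31 under block and offsets. With 1 library left out, Hist1h4n in the interaction ranged from -1.23 to 0.094, Hist1h4m in Sham-E against Sham from -0.43 to 1.33, and, in MI-E against MI, Hist2h3b from -0.62 to 0.27 and Hist2h3c1 from -0.35 to 0.28. Library size alone moved the median of all genes by -0.12 in MI against Sham. The cause of these changes was not tested. Members with few reads, such as Hist1h4a, are limited by depth.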
